A study of Sus scrofa with 10 samples.

Results

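A pooled RNA library labelled as a mixture of tissues was set against 9 libraries of single tissues from the pig. The comparison asks which genes lie outside what the single tissues span. A gene was taken as outside when its value in the pool was 1 FPKM or more and its log2(FPKM + 1) lay 1 or more above the highest single tissue or 1 or more below the lowest. FPKM is a read level per gene length and per library size. Of 25880 genes in the table, 12852 reached 1 FPKM in the pool and 131 of these met the rule. The rule uses the same values that are described here, and each library stands alone, so levels and differences are given without a test or a replicate error.

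The study sequenced ovary, subcutaneous adipose, both longissimus dorsi and psoas major muscle, kidney, lung, spleen, liver and heart, with 1 library each, for gene annotation in the pig. All 10 libraries come from the Northeast Min pig, a Chinese breed, at an age of 60 days, and no treatment is given. The label of the pool names ovary, muscle, kidney, lung, spleen, liver and heart. It does not name adipose tissue or any nervous tissue, and the sources used here do not give the amounts mixed, the muscle used, or whether the pooled RNA came from the same animals as the single tissues.

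In a mixture of RNA from several sources, the share of each transcript is an average of its shares in the sources, weighted by how much RNA each source gave. A blend of the same 9 RNAs would therefore hold each gene between its lowest and highest tissue, apart from measurement error. Myelin is the insulating sheath made by oligodendrocytes in the brain and spinal cord and by Schwann cells in peripheral nerves, astrocytes are glial cells that take up transmitter and potassium, and neurons release transmitter from synaptic vesicles. Peripheral organs carry nerve fibres, but the cell bodies of most neurons that serve them, and their mRNA, lie in ganglia, brain or spinal cord.

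The pool lay 1 or more above the highest single tissue for 126 genes, 0.980% of those at 1 FPKM or more, and 1 or more below the lowest for 5 genes, 0.0389%. These are called above and below the range in what follows. Of the 126, 47 are on lists of nervous system genes, among them genes of central myelin, astrocytes, synapses and axons. Most other genes sat between the tissues: 12423 genes (96.7%) lay from the lowest to the highest tissue, and a further 203 exceeded the highest tissue by less than the threshold. Over all 12852 genes the median of log2(pool + 1) minus log2(highest tissue + 1) was -1.15. The same rule applied to each single tissue against the other 8 found from 33 genes above the range in psoas major to 1139 in ovary, which are 0.322% and 8.65% of the genes at 1 FPKM or more in them. With a pseudocount of 5 in place of 1 the pool had 36 genes above the range, and with the liver left out it had 410.

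**Figure D1:**
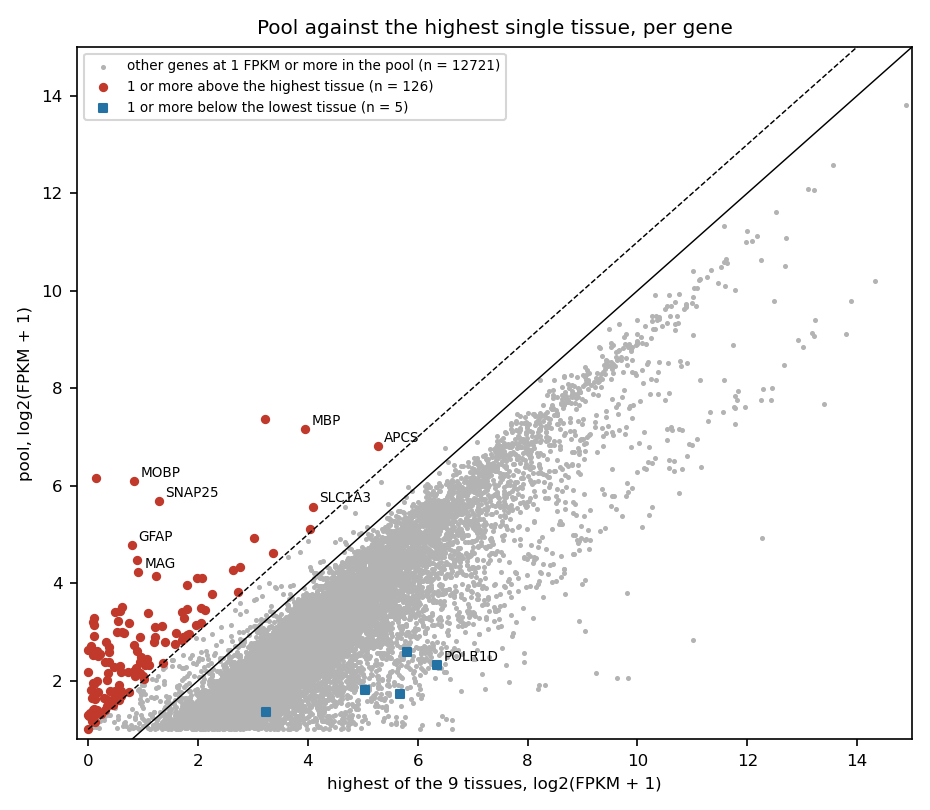
Each point is a gene at 1 FPKM or more in the pool, with log2(FPKM + 1) in the highest of the 9 tissues on the x axis and in the pool on the y axis. The solid line marks equal levels and the dashed line a difference of 1. The 126 red points lie on or above the dashed line, with MBP, MOBP, SNAP25 and GFAP far from it, and the 5 blue squares are the genes below the lowest tissue.

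The 126 genes above the range were mostly of low to moderate level in the pool. Their median was 4.78 FPKM, the lowest was 1.02 FPKM for SYT4, and 24 reached 10 FPKM. Their sum was 1403 FPKM, or 0.428% of all FPKM in the pool. In the single tissues 85 of the 126 stayed under 1 FPKM everywhere, 25 stayed under 0.1 FPKM, and 4 were listed at 0 in all 9. The highest single tissue was the ovary for 48 of them, the spleen for 22 and the lung for 14. This order is not particular to them. Among all genes at 1 FPKM or more in the tissue, the ovary was the highest for 4488 of 13164. The spleen was the highest for 2963 of 11997 and the lung for 2325 of 12788. They were spread over 19 chromosomes or scaffolds, at most 13 on any of these (chromosome 2). A hand-made grouping by function placed 84 of them, 33 more had a symbol but no group, and 9 had no symbol.

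Summed FPKM per library ranged from 292495 in kidney to 369254 in longissimus dorsi, and was 327824 in the pool. The table gives no read totals. Among the lowest values of short genes the commonest step was shared by only 27 to 75 genes per library, so the depth could not be recovered and no counting error is given. The number of genes at 1 FPKM or more ran from 9592 in longissimus dorsi to 13164 in ovary, with the pool between them.

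MOBP, a myelin protein of oligodendrocytes (chromosome 13, 24138158 to 24186386, Sscrofa11.1), stood at 67.3 FPKM in the pool. It was at 0.784 FPKM in adipose, 0.202 FPKM in ovary and 0.052 FPKM in psoas major, and was listed at 0 in the other 6 tissues. The pool was above the highest tissue by 5.26 on the log2(FPKM + 1) scale, the second largest difference of all. SNAP25, a neuronal protein that fuses synaptic vesicles with the membrane (chromosome 17, 19141417 to 19227595), stood at 50.3 FPKM. It was at 1.44 FPKM in spleen, 0.134 FPKM in adipose and 0.0573 FPKM in lung, was listed at 0 in the other 6, and the difference was 4.39. GFAP, the intermediate filament of astrocytes (chromosome 12, 18455952 to 18466680), stood at 26.5 FPKM in the pool, 3.98 above its highest tissue. In the single tissues GFAP ran from 0.12 FPKM in longissimus dorsi to 0.74 FPKM in adipose. All 3 markers were thus under 1.5 FPKM in every single tissue and over 25 FPKM in the pool.

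Among the hand-made groups of genes above the range, myelin had the largest median difference (3.26). Its 6 genes had a median of 42.5 FPKM in the pool and 0.830 FPKM in the highest tissue. These 6 were picked by the rule, so the order of groups does not rank cell types. Over the 20 genes of the oligodendrocyte list at 1 FPKM or more, the median difference was -0.47. It was 0.68 for the synaptic vesicle list and 1.18 for GABA and glycine transmission. MBP, myelin basic protein, is shared by central and peripheral myelin and was at 142 FPKM in the pool. Its single tissues ran from 4.13 FPKM in ovary to 14.5 FPKM in kidney, so MBP was present in every organ and still 3.21 below the pool at its highest; its model overlaps others.

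MAG, an adhesion protein on the inner face of the sheath, was at 17.7 FPKM in the pool against 0.876 FPKM in ovary, its highest tissue. MOG, found on the outer face of central myelin, was at 9.69 FPKM against 0.499 FPKM in ovary. OPALIN, a membrane protein of oligodendrocytes, was at 7.87 FPKM against 0.0684 FPKM in adipose. Other oligodendrocyte genes that peripheral organs also make did not meet the rule: the myelin enzyme CNP was at 16.9 FPKM in the pool and 23.6 FPKM in spleen, and the myelin lipid enzyme UGT8 was at 6.53 FPKM in the pool and 5.07 FPKM in liver. The oligodendrocyte transcription factors OLIG1 and OLIG2 were listed at 0 in the pool, and OLIG2 was listed at 0 in all 10 libraries.

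Of 11 matched genes on the Schwann cell list, 7 reached 1 FPKM in the pool and MBP alone lay above the range. With 6 others at 1 FPKM or more, a count of 0 among them is near the 0.980% of all genes and says little of peripheral myelin. PMP2, a lipid-binding protein of peripheral myelin, was at 0.516 FPKM in the pool and 2.69 FPKM in longissimus dorsi, and PRX, which stabilises the peripheral sheath, was at 7.75 FPKM in the pool and 37.6 FPKM in lung. Both were lower in the pool than in their highest tissue, and PMP2 was too low in the pool to meet the rule.

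Astrocyte and radial glia genes formed a second glial group of 6, with a median of 7.25 FPKM in the pool and 0.659 FPKM in the highest tissue. SLC1A3, a glutamate transporter of astrocytes that other tissues also use, was at 46.5 FPKM in the pool. Its single tissues included 16.0 FPKM in adipose, 7.98 in lung and 6.6 in heart, so its difference was only 1.48. SLC1A2, the main glutamate transporter of the forebrain, was at 7.52 FPKM against 1.31 FPKM in heart. MLC1, a membrane protein of astrocyte endfeet, was at 6.89 FPKM against 0.577 FPKM in ovary, and FABP7, a fatty acid binding protein of radial glia and astrocytes, at 6.98 FPKM against 0.529 FPKM in kidney. HEPACAM, an adhesion partner of MLC1, was at 3.0 FPKM against 0.123 FPKM in lung. AQP4, the water channel of astrocyte endfeet that fast muscle also carries, stayed inside the range at 11.0 FPKM in the pool and 42.6 FPKM in psoas major.

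The 12 genes of synaptic vesicles and release had a median of 5.81 FPKM in the pool and 1.04 FPKM in the highest tissue. SNAP25 led them. SYP, the vesicle membrane protein synaptophysin, was at 10.1 FPKM against 2.47 FPKM in spleen. The vesicle calcium sensor SYT1 was at 5.94 FPKM against 1.30 FPKM in ovary, and the vesicle glycoprotein SV2A at 4.82 FPKM against 0.164 FPKM in adipose. STX1A, a syntaxin and membrane partner of SNAP25, was at 5.67 FPKM in the pool and at most 0.777 FPKM in a single tissue (ovary).

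Axon and neuronal cytoskeleton genes numbered 8, with a median of 9.16 FPKM in the pool and a median difference of 2.11. KIF5C, a motor for transport along axons, was at 16.2 FPKM against 3.18 FPKM in ovary. NEFL, the light neurofilament subunit, was at 8.19 FPKM in the pool and at no more than 0.0619 FPKM in any tissue. The neuronal tubulin TUBB3 was at 8.38 FPKM against 0.459 FPKM in lung, and the growth cone protein GAP43 at 5.0 FPKM against 0.301 FPKM in ovary. STMN4, a tubulin-binding stathmin of neurons, was at 14.7 FPKM against 2.48 FPKM in adipose, and the dendritic protein MAP2 at 10.3 FPKM against 3.16 FPKM in spleen. PRPH, the intermediate filament of peripheral sensory and autonomic neurons, was at 0.062 FPKM in the pool and 1.01 FPKM in ovary.

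Genes for making, moving and sensing transmitters included both excitatory and inhibitory members. SLC17A7, the vesicular glutamate transporter typical of cortex, was at 9.46 FPKM against 1.12 FPKM in ovary, while SLC17A6, its relative typical of thalamus and brainstem, was at 0.0867 FPKM. GRIN1, the shared subunit of NMDA receptors, was at 6.96 FPKM against 0.435 FPKM in kidney. On the inhibitory side GAD1, which makes GABA, was at 5.10 FPKM against 0.115 FPKM in ovary. GABBR2, a subunit of the GABA-B receptor, was at 3.81 FPKM against 0.822 FPKM in ovary.

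The 7 channel and pump genes had a median of 2.88 FPKM in the pool and 0.242 FPKM in the highest tissue. The neuronal sodium channel SCN2A was at 1.65 FPKM against 0.242 FPKM in ovary. SLC12A5, the chloride exporter of mature neurons, was at 3.55 FPKM against 0.512 FPKM in adipose.

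Neuropeptides and proteins of secretory granules made up 9 genes with a median of 3.25 FPKM in the pool. RESP18, a granule protein of endocrine cells and neurons, was at 5.17 FPKM in the pool and listed at 0 in all 9 tissues. NPY, a peptide of cortical interneurons and of sympathetic nerves, was at 7.66 FPKM against 1.54 FPKM in spleen. SST, the peptide somatostatin, was at 2.49 FPKM against 0.0294 FPKM in ovary. CHGB, a granin of secretory granules, was at 6.43 FPKM against 0.920 FPKM in ovary, while CHGA was higher in ovary (157 FPKM) than in the pool (4.61 FPKM).

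The brain matrix proteoglycans BCAN and NCAN were at 4.73 and 4.20 FPKM in the pool and at most 0.0632 and 0.235 FPKM in a tissue, in both cases the ovary. Of 14 postsynaptic and calcium signalling genes, CAMK2N1, an inhibitor of CaM kinase II, was the highest at 33.5 FPKM, but it was also at 15.4 FPKM in spleen and 10.1 FPKM in adipose. VSNL1, a neuronal calcium sensor, was at 18.3 FPKM against 5.24 FPKM in liver. NRGN, a calmodulin-binding protein of cortical dendrites, was at 16.1 FPKM against 2.93 FPKM in lung. CYP46A1, which clears cholesterol from neurons, was at 5.45 FPKM against 0.302 FPKM in ovary. LAMP5, a membrane protein of cortical neurons, was at 3.55 FPKM and listed at 0 in every tissue.

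**Figure D2:**
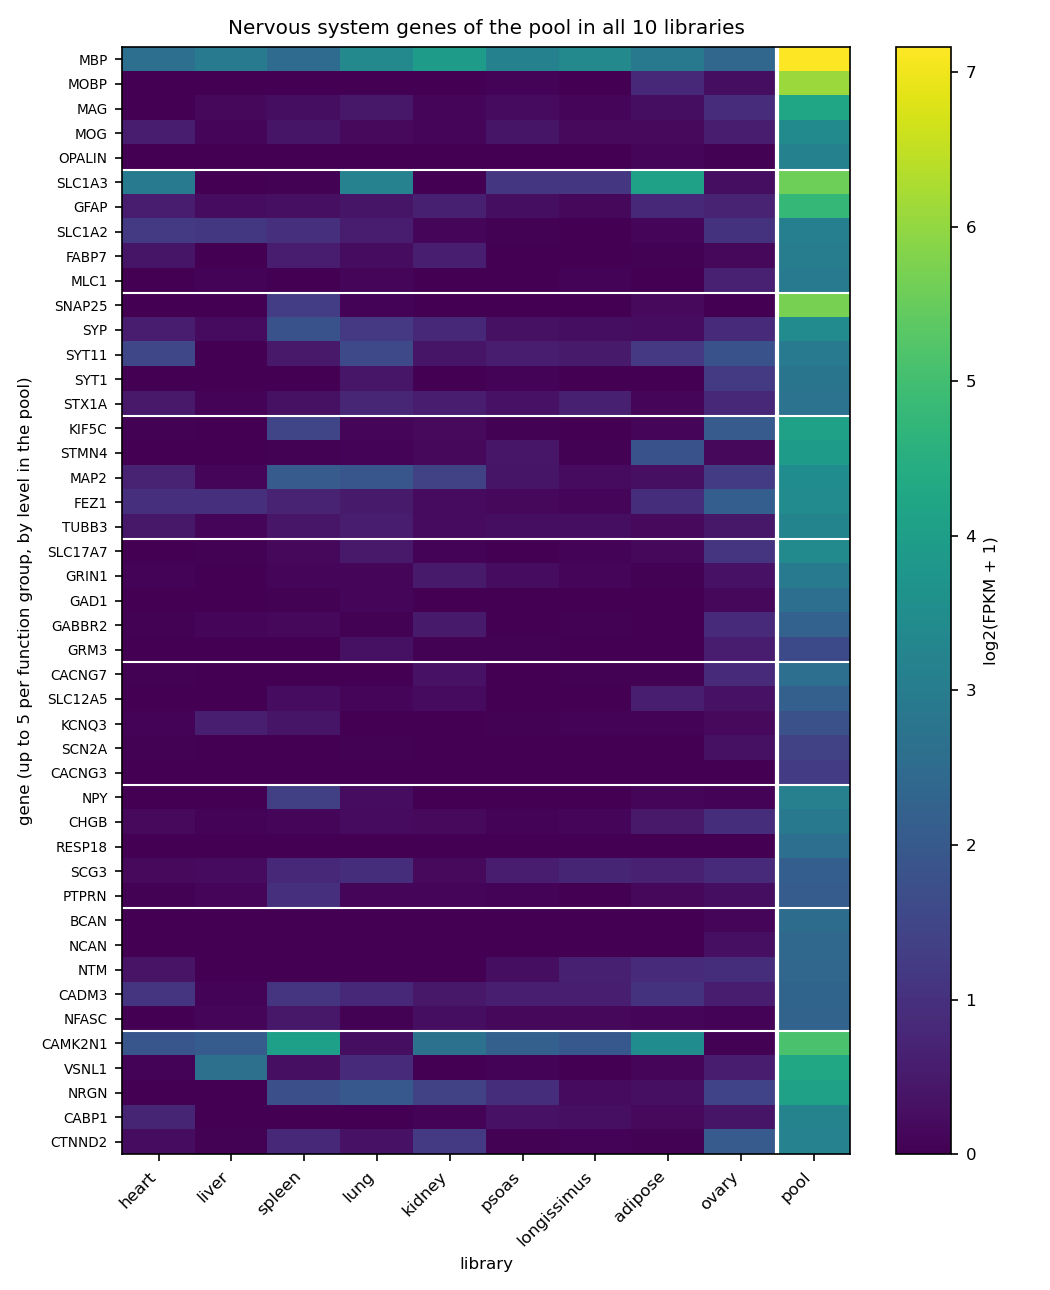
Rows are up to 5 genes from each of 9 function groups of the genes above the range, taken by level in the pool among the genes reported here, in the order myelin, astrocyte, synaptic release, axon, transmitters, channels, neuropeptides, adhesion and matrix, postsynaptic. Columns are the 10 libraries and colour is log2(FPKM + 1). The pool column is the brightest in each row, since the rule selects for that. MBP, SLC1A3 and CAMK2N1 are the rows with the most colour in the single tissues.

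Lists of genes by cell type and brain region place these members. Of 266 matched genes on 18 nervous system lists, 151 reached 1 FPKM in the pool, and 47 of those (31.1%) lay above the range, beside 0.980% of all genes. The lists and the rule were chosen with earlier results of these data known, so the share is a description. By list, 10 of 20 genes at 1 FPKM or more lay above the range for synaptic vesicles, 9 of 24 for axons, 6 of 20 for oligodendrocytes, 5 of 17 for astrocytes, 6 of 12 for GABA and glycine transmission and 4 of 13 for glutamate transmission. The medians of pool minus highest tissue differed in sign between these 6 lists, from 1.18 for GABA and glycine to -0.95 for astrocytes, whose list includes genes that liver, kidney or muscle express strongly. No gene of these lists lay below the range, which is near the 0.0389% of all genes and says little of them.

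The forebrain cortex list had 4 of 7 genes at 1 FPKM or more above the range (SLC17A7, HPCA, LAMP5 and NRN1). Several cortical transcription factors were under 1 FPKM in the pool, with NEUROD2 at 0.949, NEUROD6 at 0.794 and TBR1 at 0.649 FPKM. No gene lay above the range on 8 lists, of which microglia had 7 genes at 1 FPKM or more and choroid plexus 6. Striatum, cerebellum, thalamus and midbrain, and monoamine and acetylcholine neurons had 3 each, sensory and autonomic ganglion 2, and hindbrain and spinal cord 1. With so few genes, a count of 0 is near the 0.980% of all genes and does not set these lists apart from cortex. Among single markers, GABRA6 of cerebellar granule cells and DBH of noradrenergic cells were listed at 0 in the pool. TH, which makes dopamine, was at 0.0384 FPKM. In all, 2 of 14 matched cerebellum genes and 4 of 16 monoamine and acetylcholine genes were listed at 0. Exact 0 values can be failed estimates, so these genes do not show that a cell type is absent. The hypothalamus list had NPY alone. CSF1R, a receptor of microglia and macrophages, was at 44.4 FPKM in the pool and 189 FPKM in spleen, and the sources of its RNA cannot be told apart.

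For pituitary, thyroid, adrenal, pancreas, gut, thymus, testis, skin, skeleton, eye, uterus and gland lists, 14 in all, 150 genes were matched, 26 reached 1 FPKM in the pool and 0 lay above the range. This is near the 0.980% of all genes, so these organs are not set apart from other genes by it. The granin and secretory granule list, which neurons and endocrine cells share, had 6 of 12 above the range.

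**Figure D3:**
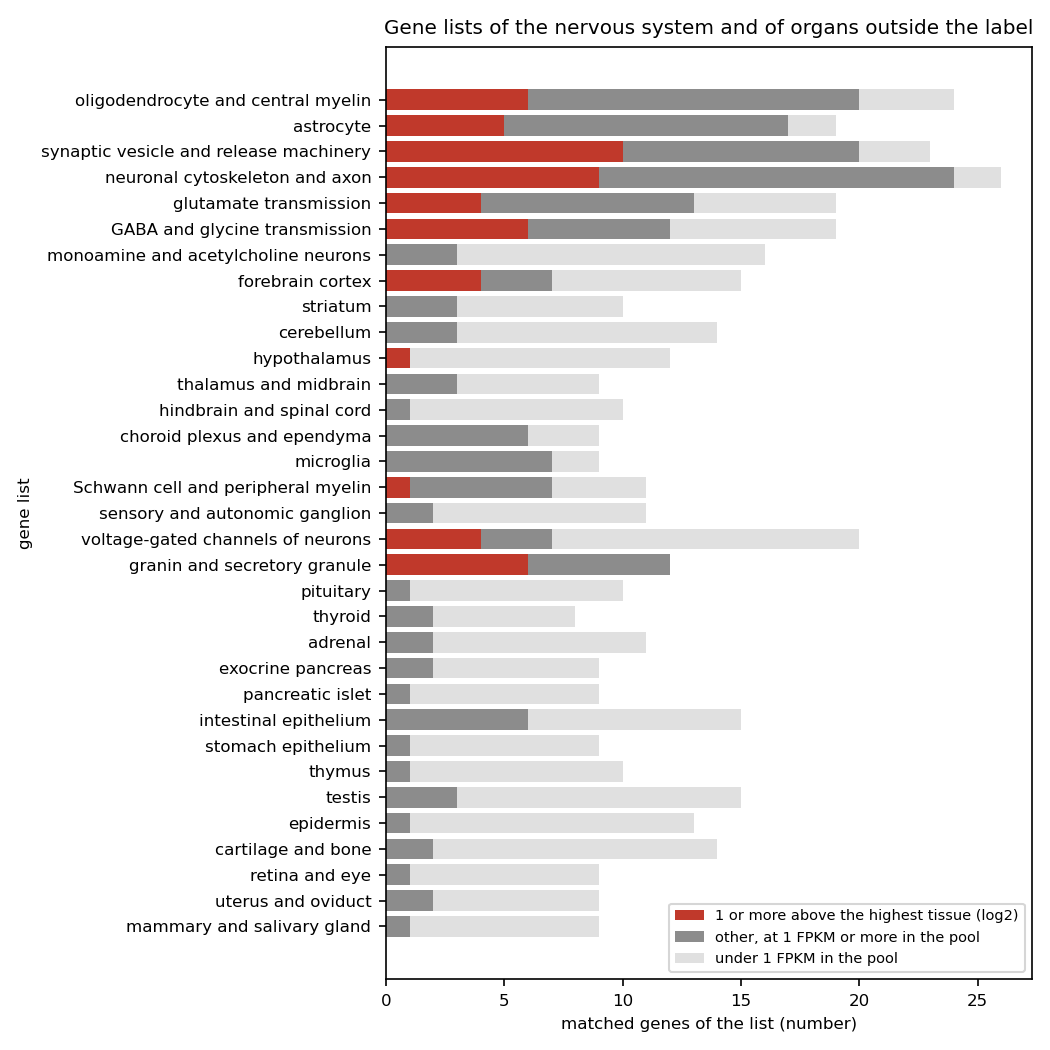
Bars show the number of matched genes on each of 33 lists, split into genes 1 or more above the highest tissue (red), other genes at 1 FPKM or more in the pool (dark grey) and genes under 1 FPKM in the pool (light grey). Red appears on lists of oligodendrocytes, astrocytes, Schwann cells, synapses, axons, glutamate and GABA transmission, channels, forebrain cortex, hypothalamus (NPY alone) and granules. It appears on none of the 14 lists of other organs, which together hold 26 genes at 1 FPKM or more.

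Another view compares the pool with a weighted sum of the tissues instead of the highest tissue. The weights were fitted on all genes other than the 131, and a departure of 1 or more on the log2 scale was counted. Of 13389 genes at 1 FPKM or more in the pool or the weighted sum, 430 (3.21%) lay above the weighted sum and 292 (2.18%) below it. Genes above the highest tissue must lie above any average of the tissues, so the genes of the rule are left out of the counts that follow. The 203 genes over the highest tissue by less than the threshold stay in. Of 151 nervous system genes at 1 FPKM or more, 66 exceeded the highest tissue at all, and only 47 of these are left out. The counts therefore rest in part on the same excess and are not a separate line of support. Of the remaining 13258 genes, 304 (2.29%) lay above the weighted sum. Of the remaining 108 nervous system genes, 36 (33.3%) lay above and 1 below. The counts above were 13 of 15 for axons, 7 of 10 for synaptic vesicles, 4 of 6 for GABA and glycine transmission and 4 of 9 for glutamate. They were 4 of 14 for oligodendrocytes, 2 of 13 for astrocytes and 1 of 6 for Schwann cells. Other lists had none: 0 of 8 for microglia, 0 of 7 for choroid plexus and 0 of 4 for monoamine and acetylcholine neurons. Striatum, cerebellum, thalamus and midbrain, and neuronal channels had 0 of 3 each. With so few genes, a count of 0 is near the 2.29% of all genes. KIF5A, a neuronal motor, was at 23.8 FPKM in the pool against 2.36 FPKM in the weighted sum, and exceeded its highest tissue, the kidney (13.4 FPKM), by less than the threshold (0.78). CNP, the myelin enzyme, was at 16.9 FPKM against 7.15 FPKM.

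A further view uses no threshold on the difference: 131 genes were at 1 FPKM or more in the pool and under 1 FPKM in all 9 tissues. Of these, 85 are among the 126, and 46 are not, the highest of the latter at 2.78 FPKM. Of these 46, 40 have a symbol and 4 are on a nervous system list, beside 151 of all 12852 genes at 1 FPKM or more. Among the 46 but on none of these lists are PTPRN2, a protein of secretory granules (2.78 FPKM), and RPH3A, a synaptic vesicle protein (2.56 FPKM). SVOP, another vesicle protein (2.45 FPKM), is likewise unlisted, and these genes were chosen after their values were seen. In bulk RNA, few cells of a type and little RNA per cell cannot be told apart.

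Some genes above the range are on none of the nervous system lists. APCS, the liver pentraxin serum amyloid P, was at 111 FPKM in the pool and 37.6 FPKM in liver, and under 1 FPKM elsewhere. Another liver pentraxin, CRP, was at 68.5 FPKM in the pool and 144 FPKM in liver, so the 2 genes lay on opposite sides of the liver level. The acute phase protein HP was at 1212 FPKM in the pool and 2261 FPKM in liver. NKX2-1, a transcription factor of lung, thyroid and ventral forebrain, was at 5.69 FPKM in the pool, 1.98 FPKM in lung, 0.308 FPKM in ovary and listed at 0 in the other 7. It was 288% of its lung level in the pool, and the median of the 14 lung epithelium genes was 22.1%. The thyroid list, which does not hold NKX2-1, had 2 genes at 1 FPKM or more and 0 above the range. Beside the 0.980% of all genes, this says little of thyroid.

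PTPRCAP, a partner of the leukocyte phosphatase CD45, was at 29.5 FPKM in the pool, 7.14 FPKM in spleen and 6.75 FPKM in liver. Its model overlaps CORO1B, which was at 34.5 FPKM in the pool and 99.9 FPKM in spleen, and whether reads were assigned differently between them was not tested. IER5, an immediate early gene, was at 9.58 FPKM in the pool, 2.27 FPKM in liver and listed at 0 in the other 8.

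The largest difference of all belonged to a gene with no symbol, ENSSSCG00000034735 on chromosome 8 (66192401 to 66236143), at 70.2 FPKM in the pool and at most 0.0970 FPKM in a tissue (6.02). It overlaps ENSSSCG00000037635 on the same strand, which was at 78.1 FPKM in liver and 28.2 FPKM in kidney but 0.780 FPKM in the pool. It also lies within ENSSSCG00000040980, at 269 FPKM in liver and 136 FPKM in the pool. The overlapping models thus went in opposite directions between liver and pool, and the assignment of reads among them was not tested. Of the other 8 unnamed members, 3 overlap or lie in neuronal or myelin genes. ENSSSCG00000037897 (21.4 FPKM in the pool) overlaps MBP, 88.4% of ENSSSCG00000009648 (6.58 FPKM) lies in the RefSeq gene NEFM, a neurofilament subunit, and ENSSSCG00000037118 (10.4 FPKM) lies within KIF5A on the opposite strand. The remaining 5 do not: ENSSSCG00000036118 (23.5 FPKM in the pool, 9.29 FPKM in liver) lies near the first on chromosome 8, 3 lie in INPP5F, UBA2 and the RefSeq gene GAS1, and ENSSSCG00000033089 (6.17 FPKM) lies in a RefSeq gene named only by a locus number. Strand use in counting is not given in the sources used here, so reads of KIF5A and of the model opposite it cannot be told apart. Of the 126 genes, 50 overlap another gene model and 76 do not. Of all 12852 genes at 1 FPKM or more in the pool, 7236 do not, which is a similar share.

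Below the range were 5 genes that every tissue expressed. POLR1D, a subunit of RNA polymerases I and III, was at 4.0 FPKM in the pool. In the tissues it was at 22.8 FPKM in liver, 43.0 in kidney, 44.5 in heart, 44.6 in longissimus dorsi, 44.9 in psoas major, 48.7 in lung, 59.3 in ovary, 60.2 in spleen and 81.0 in adipose. The pool was 2.25 below the liver, its lowest tissue. SCOC, a coiled-coil protein of the Golgi, was at 2.49 FPKM against 9.27 FPKM in spleen, its lowest, and CHURC1, a zinc finger protein, at 4.97 FPKM against 15.5 FPKM in liver. TERF2IP, a telomere protein, was at 2.30 FPKM against 7.36 FPKM in liver, and SLC51A, a subunit of a bile acid exporter, at 1.56 FPKM against 4.25 FPKM in longissimus dorsi. TERF2IP overlaps KARS1 and SLC51A overlaps PCYT1A, and both of these neighbours lay inside the range.

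Just inside the upper threshold were NSG1 (1.00), C1QTNF4 (1.01), SYT4 (1.02), C2orf88 (1.03) and GALNT9 (1.03). Just outside it were SLC39A12 (0.99), PCSK2 (0.97), NEFH (0.96), GAD2 (0.96) and SYT13 (0.96), so neuronal genes stood on both sides of it. At the lower threshold SLC51A was the last inside (-1.04), and THAP5 (-0.95), KCNAB3 (-0.75), HEXIM2 (-0.73) and TMED4 (-0.70) were among the first outside.

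The tissues that the label names were compared through genes of a single class, with both skeletal muscles averaged. Such a gene had FPKM + 1 at least 5-fold over every other class, and its level in the pool was taken as a percentage of its class. Liver genes stood highest, at a median of 47.9% (quartiles 44.3% to 51.3%, 236 genes). Lung genes followed at 19.4%, spleen at 13.4%, kidney at 6.97%, skeletal muscle at 6.65% and heart at 5.31%. ALB, serum albumin, was at 14405 FPKM in the pool and 30453 FPKM in liver. SFTPC, a lung surfactant protein, was at 1452 FPKM against 6562 FPKM, UMOD, the main urinary protein of kidney, at 158 FPKM against 2481 FPKM, and the cardiac troponin TNNT2 at 538 FPKM against 9493 FPKM. Weights fitted over all genes were 46.3% for liver, 18.2% for lung, 11.4% for spleen, 6.55% for skeletal muscle, 6.12% for kidney, 5.53% for heart, 4.37% for ovary and 1.51% for adipose. For the ovary the weight was higher than its single-class median (1.45%) and near the weight of heart. Under median-of-ratios scaling the liver median was 25.8%, below the lung median of 26.7%, and the skeletal muscle median was 4.05%. Without a division of each gene by its mean the kidney weight was 0.697%, below the heart weight of 6.99%.

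Single-class genes of ovary and adipose had the lowest medians. The 230 ovary genes had a median of 1.45% (quartiles 0.0355% to 4.96%), and 56 of them were listed at 0 in the pool. Of 14 matched oocyte and follicle genes, 12 were under 1 FPKM in the pool, and the exceptions were GDF9 (6.32 FPKM) and KITLG (8.65 FPKM), which other tissues also made. ZP3, a protein of the egg coat, was at 0.0924 FPKM against 171 FPKM in ovary, and PADI6, an oocyte enzyme, was listed at 0 against 148 FPKM. INHA, the inhibin subunit of granulosa cells, was at 0.6 FPKM against 135 FPKM. For comparison, the kidney water channel AQP2, at 72.4 FPKM in kidney, was at 5.49 FPKM in the pool. FBLN1, a matrix protein, was at 44.4 FPKM against 564 FPKM (7.86%). APLP1 and ATP1B2, which neurons and glia use strongly, reached 77.3% and 68.6% of their ovary level. Both were chosen after their values were seen, and the 90th percentile of the 230 ovary genes was 9.71%. The source of APLP1 and ATP1B2 RNA was not tested. FOXL2, a granulosa cell transcription factor, was listed at 0 in the ovary library itself.

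Of 9 oocyte and follicle genes at 1 FPKM or more in the pool or the weighted sum, 7 lay below the weighted sum and 0 above. Of 15 such adipocyte genes, 6 lay below and 0 above, so the shortfall was not particular to ovary. Over all genes 2.18% lay below. Adipose, which the label does not name, had a median of 1.68% over 54 genes, with FABP4, a fatty acid carrier, at 29.4 FPKM against 4919 FPKM and ADIPOQ, the hormone adiponectin, at 6.09 FPKM against 2074 FPKM. The ovary, which the label names, and adipose, which it does not, had close medians by this measure only: the weights (4.37% and 1.51%) and the ratios of summed FPKM (4.56% and 2.27%) were higher for ovary, and at a 10-fold limit the medians were 0.219% for ovary and 0.864% for adipose. Whether the mixed amounts, the animals or the part of the ovary differed was not tested.

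**Figure D4:**
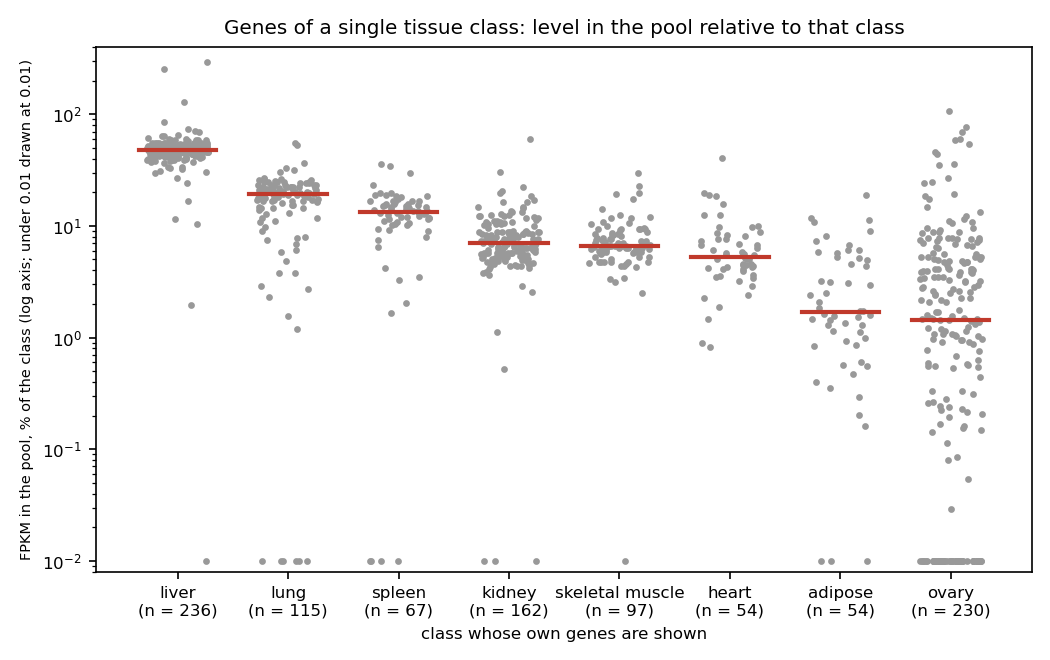
Each point is a gene of a single tissue class, and the y axis (log scale) gives its FPKM in the pool as a percentage of its FPKM in that class, with values under 0.01% drawn at 0.01%. Red bars are medians, from 47.9% for liver to 1.45% for ovary. Liver points cluster tightly and ovary points spread over the whole axis, with 56 at 0.

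**Figure D5:**
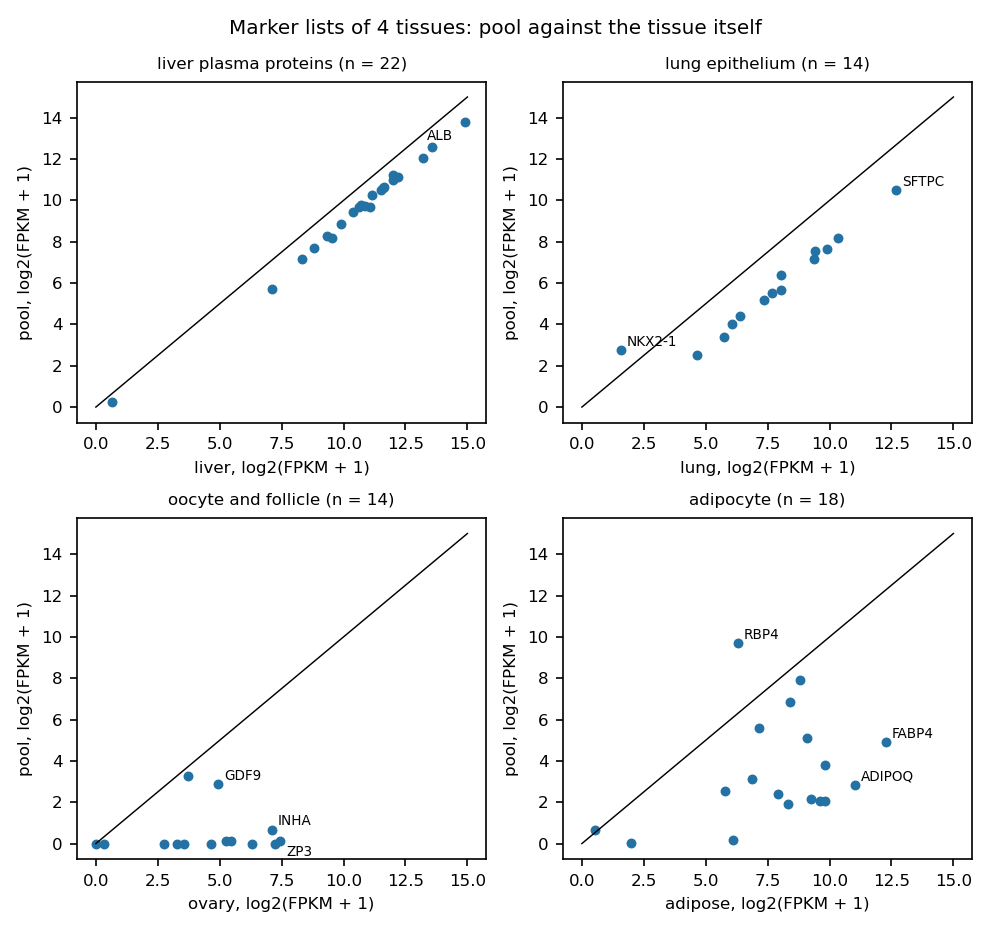
Each point is a gene of a marker list, with log2(FPKM + 1) in its own tissue on the x axis and in the pool on the y axis, and the line marks equal levels. Liver and lung genes run parallel to the line below it, apart from NKX2-1 above it. Oocyte and follicle genes lie along the bottom except for GDF9 and KITLG, and adipocyte genes scatter.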

How the data were processed

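Per the labels' protocols, RNA was extracted with TRIzol and libraries made with an Illumina TruSeq RNA kit, and per the series' design text they were sequenced on an Illumina HiSeq instrument. Builds and tools given in the submitters' processing notes are Sscrofa11.1, StringTie 1.2.2 and TopHat2 2.1.0. The authors deposited 1 table of 25880 Ensembl genes in 10 libraries, read here as FPKM from its values, since its header names no unit. Each group has 1 library, so no test was made and no error can be given. Symbols came from an Ensembl ID table (14857 genes) or from the best RefSeq overlap of at least 0.5 in both directions (1714 genes). The pseudocount was 1. Weights came from non-negative least squares on 8 classes, each gene divided by its mean plus 1. The work used scipy 1.17.1, numpy 2.4.6 and pandas 2.3.3 under Python 3.11.15, with matplotlib 3.10.9 for plots, and the steps were tested on simulated data. Exact 0 values can be failed estimates. The members and lists were chosen with earlier results of these data known, and the function groups after the values were seen. Named genes were the 3 markers, list members outside the range, the genes with the largest differences or highest levels, the genes nearest the threshold and the highest single-tissue genes. Others named, such as overlapping neighbours, were chosen after their values were seen. The alternatives were other pseudocounts, floors, thresholds, scalings and folds, each tissue left out, and no overlapping models. Some genes that meet the rule are counted but not reported here.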

Additional observations from a re-analysis of the deposited data

How the results depend on the processing

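No paired analysis was possible because each group has 1 library. A count or value was taken as moved when it changed by over 1.5 times, as no replicate error exists. No direction reversed among the 131 members, but the order of the tissue classes changed in some settings. Main counts were 126 above, 5 below and 47 nervous system list genes above. A pseudocount of 5 gave 36, 2 and 19, a floor of 5 FPKM gave 62, 0 and 28, and a difference of 2 gave 36, 1 and 21. A difference of 0.5 gave 198 above and 14 below. Below the range, a pseudocount of 0.1 gave 8, median of ratios 10 and quantile normalization 13 genes. Without gene models that overlap others, an alternative added after seeing the data, 76 of 7236 genes lay above and 3 below. Leaving out the liver gave 410 above and 8 below, and leaving out the lung 192 above. Leaving out a tissue can only widen the calls, and all 131 members stayed. Of the 126, median of ratios kept 110 and quantile normalization 86, and 35 members held under both pseudocounts, all scalings and every tissue left out. Single-class medians at 3-fold were 5.18% for adipose and 4.0% for ovary, and at 10-fold 0.864% and 0.219%. Median of ratios gave 25.8% for liver, 26.7% for lung, 4.05% for skeletal muscle and 0.872% for ovary, so liver no longer stood highest. Weights without division by the mean were 0.697% for kidney, 6.99% for heart and 1.02% for ovary. The cause was not tested. Read depth is not known, so how well values near 1 FPKM are measured cannot be stated.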
